A study of Mus musculus with 24 samples.

Results

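The 9 genes Nrxn2, Nrxn3, Nlgn1, Nlgn2, Nlgn3, Lrrtm1, Lrrtm2, Lrrtm3 and Lrrtm4 encode neurexins, neuroligins and leucine-rich repeat transmembrane proteins, 3 families of adhesion molecules that meet across the synaptic cleft. They were taken by gene symbol from an Agilent mouse expression array and accounted for 9 of its 37074 gene names and 25 of its 56605 gene probes. RNA came from the L4–L6 nerve roots of C57BL/6 mice, from the efferent nerve fibres (EN), which are the ventral root, and from the afferent nerve fibres (AN), which are the dorsal root. Each root was sampled on the day of birth (P0) and at 1 week (1W), 3 weeks (3W) and 5 weeks (5W), with 3 arrays a group and 24 arrays in all. The labels name no treatment, transgene or deletion in any group, give 9 animals per developmental time point, and speak of independent experiments without saying how many animals went into a tube of RNA. Each gene is described through the probe with the highest mean over the 24 arrays, called its first probe, and its other probes follow where they differ. All levels are the deposited log2 values, each difference is on the same log2 scale, and a gene was called when its unadjusted p was below 0.05 and its fold change above 2, with the Benjamini-Hochberg adjusted p from limma over all 36409 tested probes given beside it.

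Neurexins are presynaptic receptors with large extracellular domains that are diversified by alternative promoters and alternative splicing. Neuroligins and Lrrtm proteins sit mainly on the postsynaptic side and bind neurexins, so that a contact between both sides helps to organize the release machinery opposite the receptors. The families are best known from the brain and spinal cord, but neuroligins are also made by glia, including astrocytes, where they take part in the shaping of glial processes, and neurexin and neuroligin transcripts are made by dorsal root ganglion and motor neurons.

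The first probes of Nlgn1, Nlgn2, Lrrtm1, Lrrtm3 and Lrrtm4 lie at chr3:25330886-25330945, chr11:69636641-69636700, chr6:77195379-77195438, chr10:63392188-63392247 and chr6:79974843-79974902 (mm9). Between 55.1% and 71.7% of gene probes were well above background on an array, and the median signal ran from 45.4 to 191. All 9 first probes were tested, and 6 of them were above background on all 24 arrays. Nlgn1, Lrrtm2 and Lrrtm3 were above background on only 2 of the 3 arrays of EN at 5W, as was Lrrtm3 in AN at P0. The Schwann cell markers were above background in every group (8 of 8 genes), with the log2 of their summed signal between 19.02 and 20.30. Of the 5 motor neuron markers, from 2 (EN at 5W) to 4 (AN at 1W) were above background on all 3 arrays of a group. The log2 of their summed signal lay between 8.36 and 13.16, and Mnx1, 1 of the 5, was above background in no group. The third array of AN at 3W stood apart from its group, with correlations of 0.960 and 0.963 with the other 2 arrays, which correlated at 0.991 with each other. Its general neuronal markers summed to 18.70, against 14.26 and 14.86 on the other 2, so called differences between roots at 3W are given with and without it. For the gene lists below, leaving it out was chosen after seeing the data. In bulk tissue, fewer cells of a type and less RNA per cell cannot be told apart.

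The first comparison asked where the dorsal and ventral roots differ at each age. At P0 none of the 9 genes was called, and the roots drew apart after birth. Nrxn2, Nrxn3, Lrrtm1 and Lrrtm2 were higher in AN at 1W. The genes higher in AN were Nrxn3, Nlgn1, Lrrtm1, Lrrtm2 and Lrrtm4 at 3W and Nrxn2, Nrxn3, Nlgn1, Lrrtm1, Lrrtm3 and Lrrtm4 at 5W. No member was called lower in AN at any age. The largest differences were those of Lrrtm1, 4.58-fold at 3W and 4.31-fold at 5W, followed by Nrxn3, 4.02-fold at 1W, and Nlgn1, 3.95-fold at 5W. At their first probes Nlgn2 and Nlgn3 were not called between the roots at any age, while the second Nlgn3 probe was called at 3W.

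The members called were 0 of 9 at P0, where 1.12% of all tested probes were called and 1 member, Nlgn1, had an unadjusted p below 0.05. They were 4 of 9 at 1W (4.99% of all tested probes called, 4.17% higher in AN), 5 of 9 at 3W (5.64% called, 4.18% higher) and 6 of 9 at 5W (5.62% called, 4.24% higher). With an adjusted p below 0.05 and the same fold, 2, 4 and 4 members were called at these 3 ages, against 2.79%, 3.11% and 3.31% of all tested probes. The median difference over the 9 members was 0.07 (P0), 0.96 (1W), 1.08 (3W) and 1.30 (5W), and that over all tested probes lay between −0.06 and 0.01. The 3 AN arrays lay wholly above the 3 EN arrays for 2, 7, 7 and 6 of 9 members at the 4 ages in turn, against 6.75%, 12.0%, 12.8% and 9.37% of all tested probes. The members were chosen with earlier results of these data known, so these counts describe them.

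**Figure D1:**
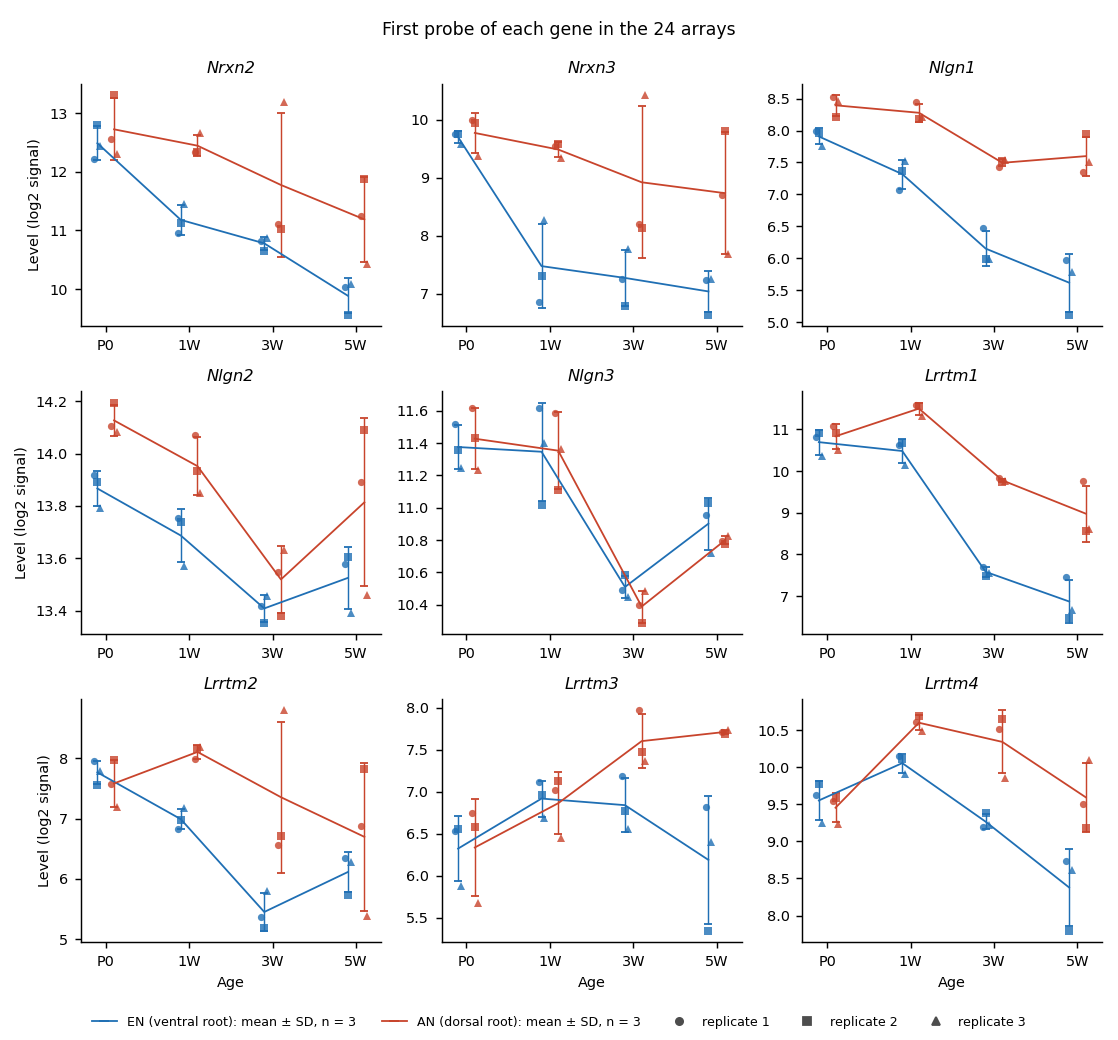
Log2 level of the first probe of each member (vertical axis, 1 panel per gene, each with its own scale) against age (P0, 1W, 3W, 5W) in EN and AN, with points for single arrays, lines through the group means of 3 arrays and bars of 1 SD. The ranges of the roots overlap at P0 except for Nlgn1 and Nlgn2, and at 5W they are apart for Nrxn2, Nrxn3, Nlgn1, Lrrtm1, Lrrtm3 and Lrrtm4.

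The presynaptic side was represented by Nrxn2 and Nrxn3. Nrxn2 in EN read 12.22, 12.80 and 12.45 (P0), 10.95, 11.13 and 11.46 (1W), 10.81, 10.66 and 10.87 (3W) and 10.03, 9.55 and 10.09 (5W). Nrxn2 in AN read 12.56, 13.32 and 12.30 (P0), 12.35, 12.34 and 12.66 (1W), 11.11, 11.03 and 13.19 (3W) and 11.25, 11.88 and 10.43 (5W). The ranges overlapped at P0 and were apart at every later age, and the third AN array at 3W was the highest of that age by a wide margin. AN exceeded EN by 1.27 ± 0.44 at 1W (log2, SE, adjusted p = 0.142) and by 1.30 ± 0.44 at 5W (adjusted p = 0.0865). At 3W the difference of 1.00 ± 0.44 fell just under the fold threshold, was 0.29 without the third AN array, and came from same-number pairs of 0.30, 0.37 and 2.32. The call at 5W rested on the second AN array, without which the difference was 0.96. A second Nrxn2 probe, at chr19:6532125-6532184 (mm9) beside the first at chr19:6533156-6533215, was called at the same ages, with 1.19 at 1W (adjusted p = 0.072) and 1.17 at 5W (adjusted p = 0.0563). Another tested probe, above background on 15 of the 24 arrays, was not called in any comparison, and its difference was 0.29 at 1W and 0.61 at 5W. With the 3 tested probes averaged, the difference at 1W was 0.92 and not called.

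Nrxn3, the other neurexin measured, had 6 probes on the array, 3 of which were tested. They lie on the forward strand of chromosome 12 and their differences between roots were unlike one another, so that the first 30 of the 60 bases of each are shown, all in lower case as nothing in them was searched for. Coordinates are of the mm9 build, as in the array's own annotation, and no gene model of that build was used here to name the exon.
Nrxn3 probe at chr12:91573315-91573374 (first probe): tgctttcccatttgctttttcgttcatgga
Nrxn3 probe at chr12:91052021-91052080: agcaccactctgtgcctatttctatctatc
Nrxn3 probe at chr12:90089234-90089293: ctccacccttcctggtcaaaagaagccatc

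At the first probe, Nrxn3 in EN read 9.76, 9.76 and 9.58 (P0), 6.86, 7.30 and 8.27 (1W), 7.26, 6.79 and 7.77 (3W) and 7.23, 6.63 and 7.26 (5W). Nrxn3 in AN read 9.99, 9.94 and 9.38 (P0), 9.54, 9.57 and 9.34 (1W), 8.21, 8.13 and 10.43 (3W) and 8.71, 9.80 and 7.69 (5W). EN dropped out of the AN range within the first week, while the 3 AN arrays at 3W and at 5W were spread over more than 2 log2 units. The difference was 2.01 ± 0.53 at 1W (adjusted p = 0.0393), 1.65 ± 0.53 at 3W (adjusted p = 0.0782) and 1.69 ± 0.53 at 5W (adjusted p = 0.0649). Without the third AN array, the difference at 3W was 0.89 and no longer called. At 5W the same-number pairs gave 1.48, 3.17 and 0.43, so all were positive but of unequal size.

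The probe at the middle coordinate was called in no comparison, and its difference between roots at 5W had a 95% interval of −0.43 to 0.46. The probe at the lowest coordinate fell in both roots, by 1.34 in EN (adjusted p = 2.93e-04) and 1.55 in AN at 3W (adjusted p = 7.37e-05), and differed between roots by −0.02 at 3W and 0.13 at 5W. The higher level of Nrxn3 in AN was thus called at 1 of its 3 tested probes. When the tested probes were averaged, the gene was not called between roots at 1W (0.64), 3W (0.47) or 5W (0.61). Whether the probes read different transcripts of the gene was not tested.

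**Figure D2:**
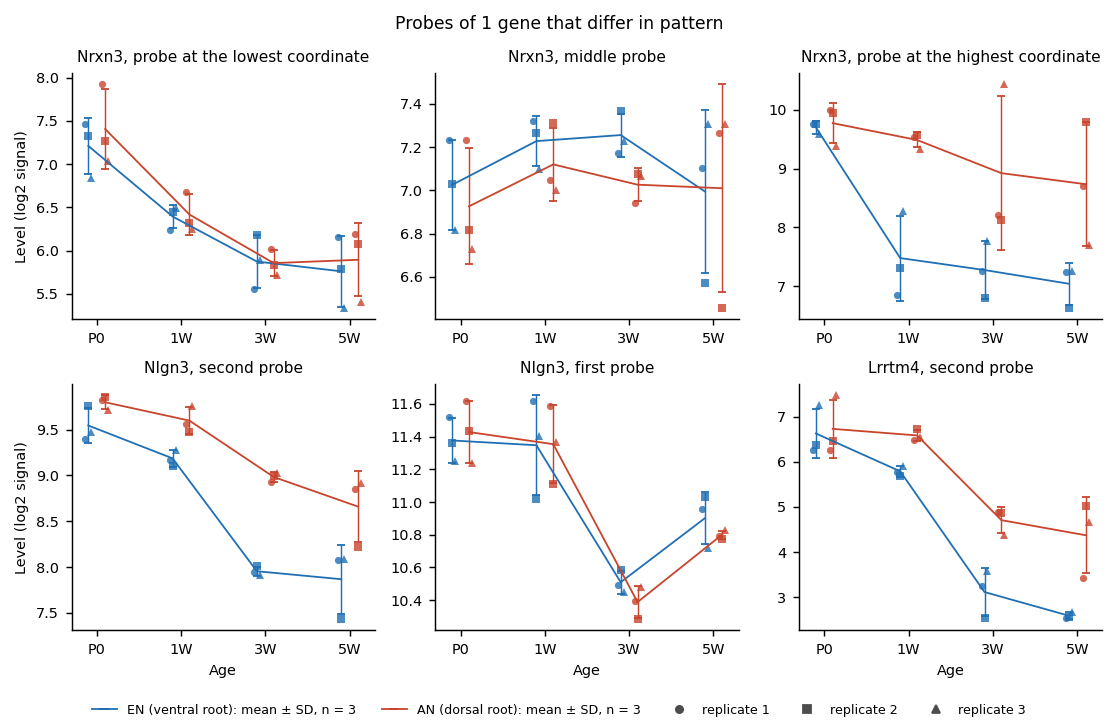
Log2 level of the 3 tested probes of Nrxn3, both probes of Nlgn3 and the second probe of Lrrtm4 (vertical axis, 1 panel per probe with its own scale) against age in EN and AN, points being arrays, lines group means and bars 1 SD. The Nrxn3 probe at the highest coordinate, which is its first, and the second probe of Nlgn3 separate the roots after P0. At the Nrxn3 probe at the lowest coordinate and the first Nlgn3 probe the ranges overlap at every age. At the middle Nrxn3 probe they are apart at 3W alone, with EN above AN. At the second Lrrtm4 probe AN lies above EN from 1W on, with no EN array above background at 3W or 5W.

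Of the neuroligins, Nlgn1, the family member of excitatory synapses, showed the widest separation of the roots. Nlgn1 in EN read 7.99, 7.97 and 7.76 (P0), 7.07, 7.36 and 7.52 (1W), 6.47, 5.99 and 5.99 (3W) and 5.97, 5.11 and 5.78 (5W). Nlgn1 in AN read 8.52, 8.21 and 8.46 (P0), 8.44, 8.18 and 8.21 (1W), 7.43, 7.52 and 7.54 (3W) and 7.35, 7.94 and 7.50 (5W). The 3 AN arrays were above the 3 EN arrays at each age, P0 included, where the difference was 0.49 ± 0.20 (adjusted p = 0.522) and not called. It was 0.96 ± 0.20 at 1W (adjusted p = 0.00997), which missed the fold threshold at 1.95-fold, then 1.34 ± 0.20 at 3W (adjusted p = 5.53e-04) and 1.98 ± 0.20 at 5W (adjusted p = 9.38e-06). Without the third AN array the value at 3W was 1.32, and no single array ended the call at 3W or 5W. In EN at 5W, 1 of the 3 arrays was not well above background. With normexp background correction the difference at 3W was 0.81 and not called.

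RefSeq (GRCm38.p6) gives Nlgn1 more than 1 start, and the 250 bases before the start at the lower coordinate are shown because they hold the only match in the members' windows searched here to a conserved stretch of the RE1 element, the site of the neuronal gene repressor REST. The windows of 10 starts of 6 members were searched on both strands for the RE1 stretch TTCAGCACC, the GC box GGGCGG and the TATA box TATAAA, none of which contains another. Capitals mark the match to TTCAGCACC, which 0.301% of the 32851 promoter windows of the same length hold. Sequences are written 5′ to 3′ on the strand of the gene.
Nlgn1 promoter at chr3:26153987-26154236 (minus strand): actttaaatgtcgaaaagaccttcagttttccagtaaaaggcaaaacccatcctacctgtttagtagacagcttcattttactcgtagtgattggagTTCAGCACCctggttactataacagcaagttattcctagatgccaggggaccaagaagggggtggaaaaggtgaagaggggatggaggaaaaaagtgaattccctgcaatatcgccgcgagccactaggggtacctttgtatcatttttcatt
A match is a description of letters and was not tied to binding in these samples. No window of Nrxn2, Nlgn3 or Lrrtm2 was searched, so whether they hold a match is not known.

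At its first probe Nlgn2, the neuroligin of inhibitory synapses, was called between the roots at no age. There its lowest group mean was 13.41 and its highest 14.13, the difference between roots ran from 0.11 at 3W to 0.29 at 5W, and the 95% interval at 5W was 0.01 to 0.56. At this probe all 12 same-number pairs had the AN array higher, by 0.03 to 0.48. A second, dim Nlgn2 probe was above background on 14 of the 24 arrays and on all 3 arrays of EN at P0 alone, the group through which it entered the tests, so its values are given with no test. The EN arrays of P0 read 5.35, 5.53 and 6.99 with it, against 5.01, 5.33 and 4.69 for AN. The EN arrays were thus above the AN arrays there, opposite to the first probe, and the ranges overlapped at every later age. Its mean in EN was 5.95 (P0), 4.78 (1W), 5.06 (3W) and 4.94 (5W), with 3, 1, 2 and 1 of 3 arrays above background, and in AN it lay between 4.92 and 5.10. The window of Nlgn2 upstream of the start at chr11:69837785-69838034 (minus strand) held 3 GGGCGG matches, a motif that 32.7% of all promoter windows hold.

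Nlgn3, on the X chromosome, was read by a pair of tested probes that separated the roots to different degrees. At the first probe the difference between roots was 0.01 at 1W and −0.10 at 5W, with 95% intervals of −0.31 to 0.32 and −0.42 to 0.21, which leave out a 2-fold difference. At the second probe, Nlgn3 in EN read 9.40, 9.76 and 9.48 (P0), 9.17, 9.10 and 9.28 (1W), 7.95, 8.01 and 7.91 (3W) and 8.08, 7.43 and 8.09 (5W). Nlgn3 in AN read 9.82, 9.86 and 9.72 (P0), 9.57, 9.47 and 9.76 (1W), 8.93, 8.99 and 9.03 (3W) and 8.85, 8.22 and 8.91 (5W) there. The ranges were apart from 1W on, and the difference was 1.03 ± 0.18 at 3W (adjusted p = 0.00181), the only age at which it was called and 1.01 without the third AN array, and 0.79 ± 0.18 at 5W (adjusted p = 0.00987). Both stretches are shown, since the call of the gene depends on which is read. By accession the second probe was matched to a RefSeq transcript of Nlgn3, and the first was matched to none.
Nlgn3 probe at chrX:98518888-98518947 (mm9, first probe): ctgagctatctctccagcccccaggttgct
Nlgn3 probe at chrX:98516457-98516516 (mm9): tatcagaaatttgccccattttctttacag

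The Lrrtm genes encode postsynaptic neurexin ligands of excitatory synapses. Lrrtm1 in EN read 10.81, 10.92 and 10.35 (P0), 10.63, 10.67 and 10.14 (1W), 7.71, 7.48 and 7.56 (3W) and 7.46, 6.48 and 6.66 (5W). Lrrtm1 in AN read 11.08, 10.92 and 10.51 (P0), 11.59, 11.57 and 11.33 (1W), 9.83, 9.74 and 9.76 (3W) and 9.75, 8.57 and 8.61 (5W). The roots overlapped at P0 and were apart at 1W, 3W and 5W, when each AN array was above each EN array. The difference was 1.02 ± 0.28 at 1W (adjusted p = 0.0487), 2.20 ± 0.28 at 3W (adjusted p = 1.18e-04) and 2.11 ± 0.28 at 5W (adjusted p = 1.37e-04). The value at 1W lay at the fold threshold and dropped to 0.97, 0.98 and 0.85 without the first AN array, the second AN array and the third EN array. The same-number pairs gave 2.12, 2.26 and 2.20 at 3W and 2.29, 2.09 and 1.94 at 5W, values close to one another. The third AN array at 3W, which read high for Nrxn2, Nrxn3 and Lrrtm2, read 9.76 for Lrrtm1, within the range of its group, and the value without it was 2.20. Both later calls held under every alternative run.

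The 250 bases before the RefSeq start of Lrrtm1 (GRCm38.p6) are shown, since this member had the largest difference between roots. The window held none of the 3 motifs searched, has a G and C content of 42.0% and 5 CG pairs, against a median of 6 over all windows, and has no capitals.
Lrrtm1 promoter at chr6:77242227-77242476 (plus strand): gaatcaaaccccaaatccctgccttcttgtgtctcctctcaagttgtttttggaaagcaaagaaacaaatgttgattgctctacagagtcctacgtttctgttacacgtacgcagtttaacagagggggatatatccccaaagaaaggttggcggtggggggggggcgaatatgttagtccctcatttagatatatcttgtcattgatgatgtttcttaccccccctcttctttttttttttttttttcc

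Lrrtm2 parted between the roots at 1W and 3W but not at 5W. Lrrtm2 in EN read 7.95, 7.56 and 7.79 (P0), 6.83, 6.97 and 7.17 (1W), 5.37, 5.19 and 5.80 (3W) and 6.34, 5.73 and 6.28 (5W). Lrrtm2 in AN read 7.58, 7.98 and 7.20 (P0), 7.98, 8.16 and 8.19 (1W), 6.56, 6.71 and 8.80 (3W) and 6.88, 7.83 and 5.39 (5W). The ranges were apart at 1W and 3W, while at 5W the AN arrays straddled those of EN. AN exceeded EN by 1.12 ± 0.51 at 1W (adjusted p = 0.332), a call that the loss of any of the 6 arrays of that age ended, with values from 1.04 to 1.20. It exceeded EN by 1.90 ± 0.51 at 3W (adjusted p = 0.0332), and by 1.18, still called, without the third AN array. At 5W the difference was 0.58 ± 0.51 with a 95% interval of −0.49 to 1.66, and the pairs gave 0.54, 2.10 and −0.89.

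Lrrtm3 was the member that rose in AN at both 3W and 5W. Lrrtm3 in EN read 6.53, 6.56 and 5.88 (P0), 7.11, 6.96 and 6.69 (1W), 7.19, 6.77 and 6.56 (3W) and 6.82, 5.34 and 6.41 (5W). Lrrtm3 in AN read 6.75, 6.58 and 5.68 (P0), 7.02, 7.13 and 6.44 (1W), 7.97, 7.48 and 7.36 (3W) and 7.72, 7.69 and 7.73 (5W). The roots overlapped through 1W and were apart at 3W and 5W. The difference was 0.76 ± 0.33 at 3W (adjusted p = 0.206), under the fold threshold and 0.88 without the third AN array, and 1.52 ± 0.33 at 5W (adjusted p = 0.00817). The second Lrrtm3 probe was above background on no EN array at 3W or 5W and on all AN arrays of those ages, the 2 groups through which it entered the tests, so only bounds are given and no test. AN was at least 1.65-fold higher at 3W and at least 1.80-fold higher at 5W. These bounds set the AN mean against the lowest signal of probes well above background on the EN arrays. With normexp background correction the first probe differed by 0.95 at 5W and was not called.

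Lrrtm4 was level between roots at P0. Lrrtm4 in EN read 9.63, 9.78 and 9.25 (P0), 10.15, 10.11 and 9.91 (1W), 9.19, 9.38 and 9.22 (3W) and 8.73, 7.79 and 8.61 (5W). Lrrtm4 in AN read 9.54, 9.59 and 9.23 (P0), 10.61, 10.70 and 10.49 (1W), 10.51, 10.66 and 9.86 (3W) and 9.51, 9.18 and 10.09 (5W). All arrays of 1W lay above those of P0 in either root, and AN was wholly above EN from 1W on. The difference was 1.08 ± 0.25 at 3W (adjusted p = 0.0158) and 1.22 ± 0.25 at 5W (adjusted p = 0.00575). Both stood close to 2-fold and slipped under it, to 0.99 and 0.92 at 3W without the first and the second AN array, and to 0.97 and 0.92 at 5W without the third AN array and without the second EN array. Without the third AN array, the value at 3W was 1.32.

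**Figure D3:**
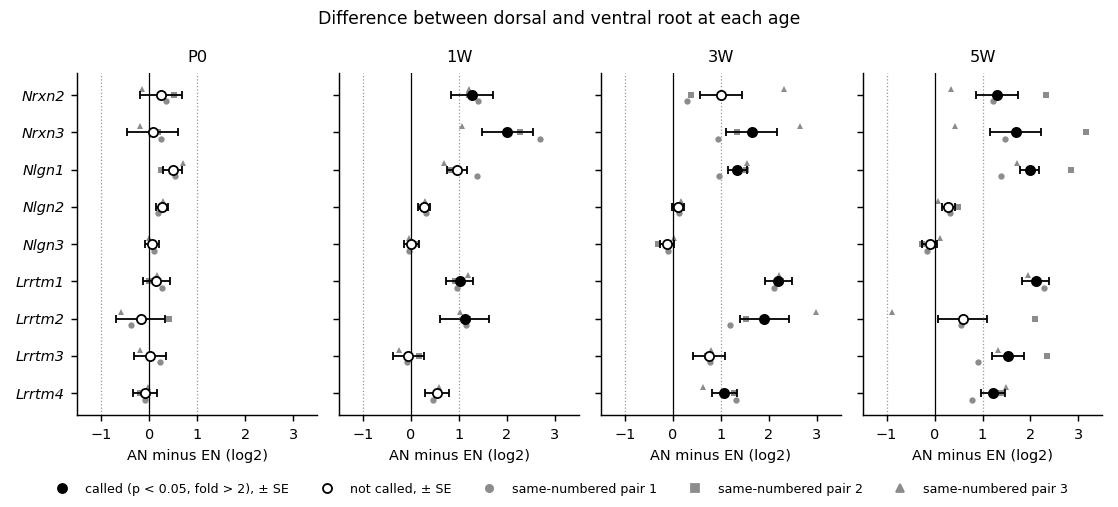
AN minus EN in log2 units (horizontal axis, 0 meaning no difference) for the first probe of each member at P0, 1W, 3W and 5W, with large points for the estimate (filled where called), bars for its SE, small grey points for the 3 same-number pairs, and dotted lines at a 2-fold difference. No point is filled at P0, and Lrrtm1 at 3W and 5W and Nrxn3 at 1W lie furthest from 0.

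The second comparison asked how each root changed after birth. In EN, 5 of the 9 members fell from P0 to 3W and 6 to 5W, led by Lrrtm1, which was 14.2-fold lower at 5W, and no member rose. In AN fewer members fell, and Lrrtm3 and Lrrtm4 rose. By family, both neurexins fell in EN at each later age, Nlgn1 fell there at 3W and 5W, and of the Lrrtm genes Lrrtm1 and Lrrtm2 fell at 3W and Lrrtm1, Lrrtm2 and Lrrtm4 at 5W.

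The members called against P0 in EN were 2 of 9 at 1W (13.5% of all tested probes called, 6.66% lower), 5 of 9 at 3W (31.4% called, 14.8% lower) and 6 of 9 at 5W (30.7% called, 15.0% lower), all with an adjusted p below 0.05, which 11.9%, 30.5% and 29.9% of all probes also passed. Their median change was −0.21, −1.71 and −1.65 at these ages, against 0.06, 0.04 and 0.04 over all tested probes. In AN they were 1 of 9 at 1W (10.3% called, 5.8% higher), 3 of 9 at 3W (28.7% called, 15.5% higher and 13.3% lower) and 3 of 9 at 5W (28.9% called, 15.6% higher and 13.3% lower), again all with an adjusted p below 0.05 (8.58%, 27.8% and 27.8% of all probes). At 3W and 5W, 1 of the 3 was a rise. The share of members called in AN at 3W and 5W was close to that of all probes.

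In EN, Nrxn2 fell by 1.31 at 1W, 1.71 at 3W and 2.60 at 5W (adjusted p = 0.0335, 0.00314 and 6.57e-05), and with its 3 tested probes averaged the changes at 1W and 3W were −0.87 and −0.94, not called. Nrxn3 fell there by 2.22, 2.42 and 2.66 (adjusted p = 0.0047, 9.01e-04 and 3.66e-04), and the average of its tested probes at 1W was −0.94, not called. Nlgn1 had a change of −0.59 at 1W and then fell by 1.76 at 3W and 2.29 at 5W (adjusted p = 1.05e-06 and 2.83e-08). Lrrtm1 was within 0.21 of its P0 level at 1W and fell by 3.11 at 3W and 3.82 at 5W (adjusted p = 5.38e-08 and 2.58e-09). The neurexins were thus called in EN by 1W, and Lrrtm1, Nlgn1 and Lrrtm2 by 3W. Lrrtm2 fell by 2.32 at 3W and 1.65 at 5W (adjusted p = 9.20e-04 and 0.0106). Lrrtm4 fell by 1.17 at 5W (adjusted p = 6.78e-04), and its change without the second EN array was −0.88, which was not called. A second Lrrtm4 probe was above background on all EN arrays at P0 and on none at 3W or 5W, at least 3.36-fold lower at 3W and at least 3.00-fold lower at 5W, bounds with no test since it entered the tests through the groups of P0 and 1W. Nlgn3 changed by −0.87 at its first probe at 3W, short of 2-fold, and fell by 1.59 at its second (adjusted p = 7.10e-07).

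In AN, Lrrtm4 rose by 1.15 at 1W (adjusted p = 0.00303) and stood 0.89 above P0 at 3W and 0.14 at 5W, neither called. That rise was read by the first probe alone. The second had means in AN of 6.73 at P0 and 6.58 at 1W, and the average of both probes changed by 0.50, not called. At 3W and 5W the second probe was above background on 2 and 1 of the 3 AN arrays, so no size is given for its change there. Lrrtm3 rose by 1.27 at 3W and 1.38 at 5W (adjusted p = 0.00375 and 0.00194), and without the third P0 AN array, where it was lowest, the rise at 3W was 0.94 and not called. With normexp the rises were 0.80 and 0.90, neither called. Lrrtm1 changed by 0.67 at 1W and fell by 1.06 at 3W and 1.86 at 5W (adjusted p = 0.00424 and 2.18e-05). Nlgn3 fell by 1.04 at its first probe at 3W (adjusted p = 1.61e-05) and changed by −0.82, not called, at its second. Without the first P0 AN array, the changes at 3W were −0.93 for Lrrtm1 and −0.95 for Nlgn3, and −0.99 for Nlgn3 without the second AN array at 3W, none of them called. Nrxn2 fell by 1.54 at 5W (adjusted p = 0.00686), or by 0.97, not called, over its 3 tested probes, while Nrxn3 at −1.04 and Nlgn1 at −0.80 were not called. Without the third AN array at 3W, 6 members were called against P0 in AN at that age in place of 3, with Nrxn2 at −1.66, Nrxn3 at −1.60 and Lrrtm4 at 1.13 added, and without the second AN array at 5W, 5 in place of 3. Without the first P0 AN array, 1 was called at 3W.

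**Figure D4:**
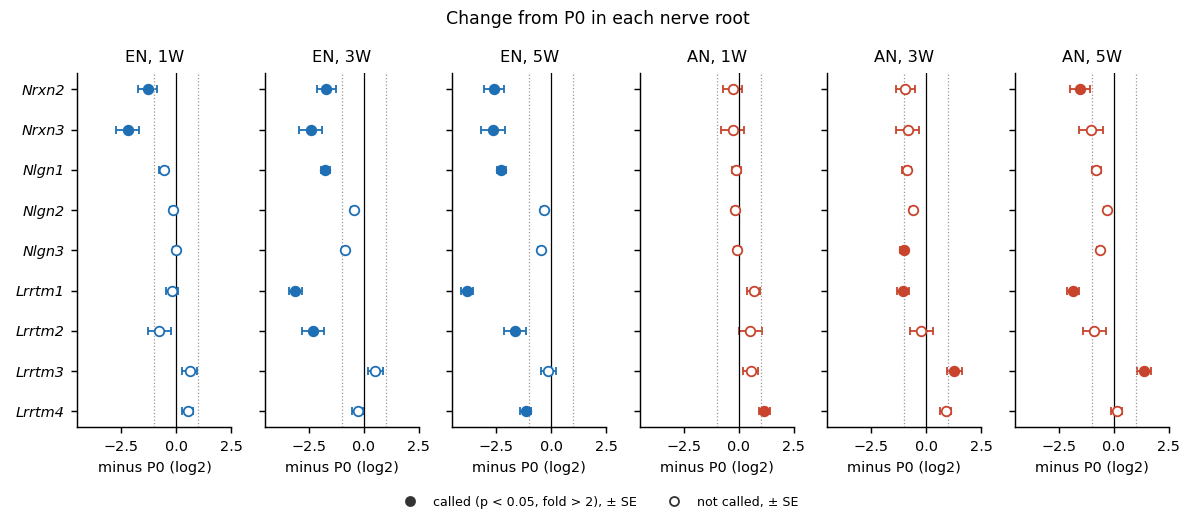
Change from P0 in log2 units (horizontal axis, 0 being the P0 level) of the first probe of each member at each later age in either root, with points for the estimate (filled where called), bars for its SE and dotted lines at a 2-fold change. All filled points in EN lie to the left of 0, and in AN those of Lrrtm3 at 3W and 5W and of Lrrtm4 at 1W lie to the right.

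Arrays share slides, and values within slides are given for these changes. The pairs of AN and EN arrays of the same number lay on 1 slide each, so the differences between roots above are within slides. P0 shared slides with 1W and 5W but none with 3W. Within slide 3, the change in EN from P0 to 5W was −4.15 for Lrrtm1, −2.76 for Nlgn1, −3.08 for Nrxn2, −3.04 for Nrxn3, −1.95 for Lrrtm2 and −1.73 for Lrrtm4. These values set 1 array of 5W, the second EN array, against 2 of P0, and that array was the lowest of its group for each of these genes. Its Nlgn1 level of 5.11 lay under 5.62, its lowest signal of probes well above background. In AN the change from P0 to 5W on that slide was −2.14 for Lrrtm1, −0.93 for Nrxn2 and 1.56 for Lrrtm3. From P0 to 1W, Nrxn3 in EN changed by −2.90 on slide 1 and −1.40 on slide 3, Nrxn2 in EN by −1.27 and −1.17, and Lrrtm4 in AN by 1.07 and 1.08. All have the sign of the pooled value, and each rests on 1 array of the later age. With the slide as a block, the changes at 3W that were still called were those of Lrrtm1 (−2.89) and Nlgn1 (−1.81) in EN, 2 in place of 5, and none in AN in place of 3.

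The third comparison asked whether the difference between roots itself changed from that at P0. It had widened for 1 of 9 members at 1W (3.8% of all tested probes called, 2.96% widened), for 3 at 3W (4.08% called, 2.66% widened) and for 5 at 5W (4.6% called, 3.1% widened), and no member was called in the other direction. With the adjusted p below 0.05 there were 0, 1 and 2, against 0.0632%, 0.525% and 0.931% of all probes. The 2 genes at 5W were Lrrtm1, by 1.97 ± 0.40 (adjusted p = 0.0188), and Nlgn1, by 1.49 ± 0.29 (adjusted p = 0.0139). For Nlgn1, which was near background in EN at 5W, the widening with normexp background correction was 0.68 and not called. At 3W it was Lrrtm1, by 2.06 ± 0.40 (adjusted p = 0.0205), and by 2.06 without the third AN array of that age. At 1W, where limma with adjustment called none, 2 members had an unadjusted p below 0.05.

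Marker genes of other cells in the roots moved over the same groups. The general neuronal markers Snap25, Rbfox3, Elavl3, Elavl4, Syt1, Stmn2 and Nefl were higher in AN for 0, 6, 5 and 3 of 7 genes at the 4 ages in turn, and without the third AN array for 2 of 7 at 3W. The log2 of their summed signal in EN was 15.99 to 16.84 (P0), 13.81 to 14.76 (1W), 13.89 to 14.19 (3W) and 14.07 to 14.72 (5W). In AN it was 16.23 to 17.56, 16.98 to 17.24, 14.26 to 18.70 and 13.41 to 15.97 at the same ages. The ranges of the roots were apart at 1W and 3W and overlapped at P0 and 5W. The 9 sensory neuron markers were higher in AN for 0, 8, 8 and 2 genes at the 4 ages, and for 5 at 3W without that array. Of these 9, 6 at 3W and 7 at 5W were above background on all 3 EN arrays, while Isl1 was on none. Their sum in EN was 15.68 to 15.95 (P0), 13.73 to 15.21 (1W), 14.92 to 15.49 (3W) and 14.09 to 15.07 (5W), and in AN 15.42 to 16.88, 16.46 to 16.67, 15.17 to 17.99 and 15.21 to 15.95. The immature Schwann cell markers Ngfr, Ncam1, L1cam, Sox2 and Pou3f1 were higher in AN for 0, 1, 4 and 4 of 5 genes. Their sum in EN was 15.61 to 15.78 (P0), 15.25 to 15.63 (1W), 14.03 to 14.08 (3W) and 12.74 to 13.69 (5W), and in AN 15.79 to 15.97, 15.95 to 16.02, 15.17 to 15.47 and 14.01 to 14.84, apart from EN at all 4 ages. The 7 satellite glia and astrocyte markers were higher in AN for 0, 4, 4 and 5 genes, at 14.39 to 14.90 in EN and 15.31 to 16.05 in AN at 5W. The 6 oligodendrocyte markers were higher in AN for 0, 2, 2 and 3 genes, at 15.51 to 15.92 in EN and 15.45 to 16.03 in AN at 5W. The lists also moved with age. Of the 9 sensory neuron markers in EN, 8 were called lower than at P0 at each later age and 0, 1 and 0 higher. Their median changes were −4.22 (1W), −4.54 (3W) and −4.62 (5W). The summed signal above weighs the brightest genes most, here Pou4f1 with a mean of 14.42 over the 24 arrays. From P0 to 1W, 3W and 5W in EN, 6, 7 and 6 of the 7 general neuronal markers were called lower, 2, 4 and 5 of the 5 immature Schwann cell markers, 0, 3 and 3 of the 3 proliferation markers and 3, 2 and 3 of the 4 skeletal muscle markers, while 3, 2 and 3 of the 4 macrophage markers were called higher. In EN the summed proliferation markers lay at 14.22 to 14.58 at P0 and at 10.39 to 10.95 at 5W. The muscle sum lay at 15.44 to 16.66 and 12.89 to 14.11 at these ages, and the macrophage sum at 13.43 to 13.64 and 15.08 to 15.58. In AN the 3 proliferation markers were lower for 1, 3 and 3 genes at the same ages. The part of these lists in the members' differences was not tested. Single arrays differed: at 5W the third AN array had the lowest neuronal sum of its group, 13.41, below all EN arrays of that age, and there Nrxn3 exceeded its EN partner by 0.43 and Lrrtm2 lay −0.89 from it. On the same pair the difference was 1.94 for Lrrtm1, 1.72 for Nlgn1, 1.33 for Lrrtm3 and 1.48 for Lrrtm4.

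**Figure D5:**
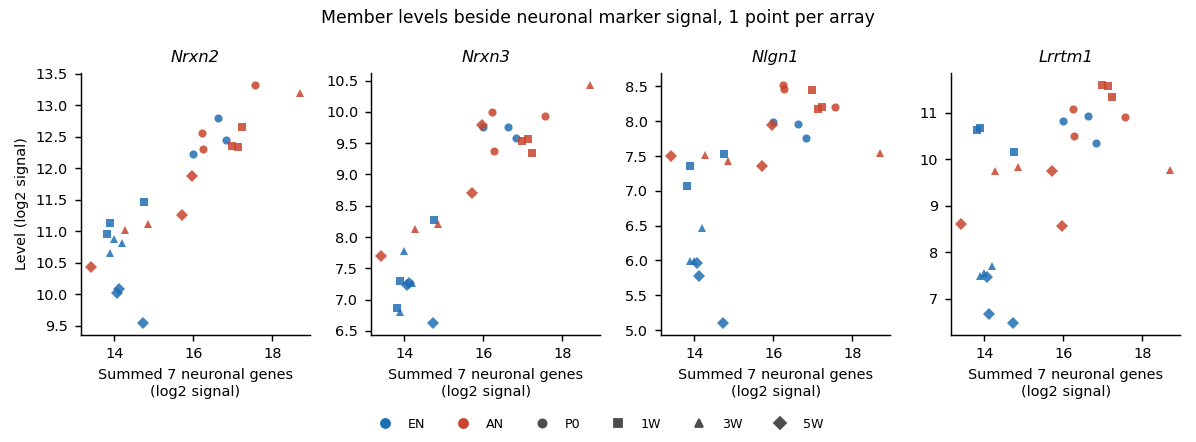
Log2 level of the first probe of Nrxn2, Nrxn3, Nlgn1 and Lrrtm1 (vertical axis, each with its own scale) against the log2 of the summed signal of the 7 general neuronal markers (horizontal axis), 1 point per array, with colour for the root and shape for the age. The third AN array at 3W is the point at 18.70 on the horizontal axis, where Nrxn2 and Nrxn3 are high and Nlgn1 and Lrrtm1 lie with their group.

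The wider set of synaptic adhesion genes gave the background to the members. Of 70 genes on 7 lists, 66 were tested. Between roots, 0 were called at P0, 15 were higher and 0 lower in AN at 1W, 20 higher and 3 lower at 3W, and 15 higher and 2 lower at 5W. Without the third AN array, 16 were higher and 3 lower at 3W. With an adjusted p below 0.05 and the same fold, 10, 19 and 15 were called at these ages. Their median difference was 0.15, 0.32, 0.42 and 0.37 at the 4 ages, below that of the members from 1W on. The 6 presynaptic scaffold genes among them had medians of 0.07, 1.35, 1.03 and 0.12, and of 0.31 at 3W without the third AN array. Their median at 1W was above the 0.96 of the members. Of the 66 tested genes, 3 rose and 19 fell at 1W against P0 in EN, 5 rose and 27 fell at 3W, and 3 rose and 28 fell at 5W.

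Among the other neurexin ligands and partners, 4, 5 and 4 of 15 tested genes were higher in AN at the 3 later ages in turn, and 0, 2 and 2 were lower. Cbln2, a secreted cerebellin that bridges neurexins to postsynaptic receptors, was higher by 3.22, 3.11 and 3.33 (adjusted p = 0.0335, 0.033 and 0.0199), and by 2.37 at 3W without the third AN array. Cbln1, of the same family, was higher by 1.25, 2.67 and 2.59 (adjusted p = 0.33, 0.00907 and 0.00857), and by 2.52 at 3W without the third AN array. Nxph1, a secreted neurexin ligand, was higher by 2.24, 3.37 and 3.41 (adjusted p = 0.111, 0.0102 and 0.0075), and by 2.77 at 3W without the third AN array. In EN the same 3 genes fell by 5.53, 3.43 and 4.37 from P0 to 5W (adjusted p = 1.90e-05, 5.33e-05 and 6.06e-05). Their means over the 24 arrays were 7.09, 7.07 and 5.42. On the EN arrays of 5W the lowest signal of probes well above background was 4.18, 5.62 and 5.33. After such falls their EN signal was near background, so the sizes of these differences and falls are uncertain and are not ranked against those of the members. The 2 genes lower in AN at 3W were C1ql3, at −1.42, and C1ql2, at −1.43. Without the third AN array they were at −1.25 and −1.24 (adjusted p = 1.21e-05 and 0.103). Their means over the 24 arrays were 11.87 and 4.89, so C1ql3 was brighter than the 3 genes above and C1ql2 was dim.

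The receptor phosphatase, Slitrk and netrin-G list, which holds adhesion systems that work in parallel to neurexins, had 4, 9 and 8 of 22 tested genes higher in AN at 1W, 3W and 5W and 0 lower. Slitrk5, a postsynaptic ligand of receptor phosphatases, differed by 1.47, 2.31 and 2.90 (adjusted p = 3.66e-05, 3.92e-08 and 2.35e-09), and its difference at 5W exceeded that at P0 by 2.57 (adjusted p = 2.34e-06). Slitrk3 was higher by 3.89 at 1W and 3.66 at 3W (adjusted p = 0.0321 and 0.0364), and by 2.42 without the third AN array at 3W, where Slitrk5 was at 2.30. The Slitrk3 probe was dim, with a mean of 6.03 over the 24 arrays, so the sizes of its differences are uncertain. Of the 6 presynaptic scaffold genes listed, 4, 2 and 1 were higher in AN, 1 at 3W without the third AN array, with Apba2 at 1.58, 1.65 and 1.26 (adjusted p = 0.0177, 0.0117 and 0.0445) and at 1.08 without that array. Of the 15 postsynaptic scaffold genes listed, 2, 2 and 2 were higher, with Dlgap3 at 2.61 at 1W and 2.15 at 3W (adjusted p = 0.0141 and 0.0354), 1.40 at 3W without that array, and 0, 1 and 0 lower. Mdga1 and Mdga2, whose products bind neuroligins and keep neurexins off them, were called between roots at no age and fell in both from P0 to 3W, in EN by 1.58 and 1.56 and in AN by 1.14 and 1.75 (adjusted p = 1.14e-05, 8.93e-05, 3.41e-04 and 2.73e-05).

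Lrrtm1, Lrrtm2 and Lrrtm3 lie within introns of the alpha-catenin genes Ctnna2, Ctnna1 and Ctnna3, and the hosts did not all move with them. Ctnna2 was higher in AN by 2.52 at 1W and 1.44 at 3W (adjusted p = 0.0072 and 0.104), was at 0.57 and not called at 3W without the third AN array, and was not called at 5W, when Lrrtm1 differed by 2.11. Ctnna3 rose in both roots, by 2.55 in EN and 2.56 in AN from P0 to 5W (adjusted p = 1.02e-06 and 1.00e-06), and was not called between roots at any age, while Lrrtm3 rose in AN. Ctnna1 was not called in any of these comparisons.

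The probes of other genes whose profile over the 24 arrays was most like that of each member were found by Pearson's r over all tested probes. The points share the same arrays and the same 8 groups, so the values describe the likeness of profiles over root and age. For Nrxn2 they were Hcn3 (r = 0.981) and Plcxd3 (r = 0.978), and for Nrxn3 Dock3 (r = 0.983) and Kcnma1 (r = 0.981), which include ion channel genes of neurons (Hcn3, Kcnma1). For Lrrtm2 they were Necab1 (r = 0.937) and Mapk8ip2 (r = 0.936). Nlgn1 was most like Pcdh10 (r = 0.963) and Lrrc4b (r = 0.960), the first a protocadherin and the second a member of the lists above. Lrrtm1 was most like Pou3f2 (r = 0.971) and Lurap1l (r = 0.969), Pou3f2 being a POU factor of the Schwann cell and neural lineages. For Lrrtm3 they were Gdap7 (r = 0.900) and Cnksr2 (r = 0.884), and for Lrrtm4 Rasgef1b (r = 0.918) and Bach1 (r = 0.916). For Nlgn2 they were Eps15l1 (r = 0.918) and Lppr2 (r = 0.900), and for Nlgn3 2210409E12Rik (r = 0.961) and Nos2 (r = 0.960). The closest profiles of the neurexins had a higher r than those of Lrrtm3, Lrrtm4 and Nlgn2.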

How the data were processed

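RNA of 24 nerve root samples (8 groups of 3) had been hybridised to 1-colour Agilent SurePrint G3 mouse arrays. The deposited scanner files give the intensity of each spot from Agilent Feature Extraction 10.7.1.1, and the value table holds log2 values that the authors quantile normalized in GeneSpring GX 12.5. Each of the 24 table columns correlated best with its own array (r 0.9955 to 0.9999 over 56150 probes, at most 0.9908 with another), so its scale is log2 of the signal, and each column's median was 6.3109.

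Groups were taken from the labels. The log2 values were fitted with limma 3.58.1 in R 4.3.3 as 8 group means, with 16 residual degrees of freedom, over 36409 of 56605 gene probes (64.32%), those that in some group cleared the background on each of its 3 arrays. A call needed an unadjusted p below 0.05 and a fold above 2, the thresholds of the study's methods. The scripts were tested on simulated data. No array was dropped and none imputed.

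Arrays of the same number in AN and EN deviated together from their group means (r 0.107 to 0.646 in the 12 pairs, at most 0.116 with another number), and each such pair shared a slide, so the numbers were taken to pair the samples. Nothing says whether the samples of a group came from separate animals, so p-values measure the spread between these samples, which may be technical. The number of arrays limits the precision.

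The members, gene lists and tests were chosen with earlier results of these data known. The genes named were the 9 members, at most 4 genes of a list in each comparison (those with the largest called change), and for each member the 2 probes of other genes with the highest r. C1ql2 and C1ql3 were also named, as the neurexin ligand genes called lower in AN at 3W. Of the 25 member probes, 18 could be matched by accession, 0 of them to another gene. Promoter sequences are RefSeq's on GRCm38.p6 and probe positions are on mm9. Alternatives covered the normalization, the background correction, the filter on dim probes, blocks for replicate, slide and scan batch, array weights, the groups fitted, the mean of a gene's probes and leaving out each array. Leaving out the third AN array at 3W for the gene and marker lists was added after seeing the data.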

Additional observations from a re-analysis of the deposited data

Results flagged for a closer look

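The difference between AN and EN differed from that at P0, by limma's test of the difference itself, in 9 cases over 6 members. For Nrxn3 it was larger by 1.93 at 1W (adjusted p = 0.487) and by 1.62 at 5W (adjusted p = 0.446). The first call was lost without the first EN array at 1W (1.62), and the second without any of 9 of the 12 arrays, with values down to 1.09 without the second AN array at 5W. For Lrrtm1 it was larger by 2.06 at 3W (adjusted p = 0.0205) and by 1.97 at 5W (adjusted p = 0.0188). For Nlgn1 it was larger by 1.49 at 5W (adjusted p = 0.0139), and by 0.68, not called, with normexp background correction. For Lrrtm2 it was larger by 2.09 at 3W (adjusted p = 0.282), and by 1.37 without the third AN array of that age. For Lrrtm3 it was larger by 1.51 at 5W (adjusted p = 0.153), and by 0.94, not called, with normexp. For Lrrtm4 it was larger by 1.17 at 3W (adjusted p = 0.192), 1.42 without that array, and by 1.31 at 5W (adjusted p = 0.0899). In all 9 cases AN was further above EN at the later age, and the adjusted p was below 0.05 for Lrrtm1 at both ages and for Nlgn1.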

How the results depend on the processing

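Of 44 gene results under 788 alternatives, 715 kept their call, 73 kept their direction but lost it, and 0 reversed. The block for the replicate number, which pairs the arrays, ended no call (44 of 44, with 4 members called between roots at 1W), and neither did quantile normalized scanner signal, the absence of a filter, or fitting only the groups of the comparison. Losses came from normexp background correction (12), the mean of a gene's probes (13), the slide block (7), the scan batch block (6), 75th percentile scaling (4), array weights (1) and leaving out 1 array (30 of 318). Counts of called members moved as follows. AN against EN at 1W, 4 members were called, and 2 by adjusted p, 2 with 75th percentile scaling, 2 with normexp and 2 with the mean of probes. At 3W, 5 were called and 3 with only the probes above background on all 24 arrays, since Nlgn1, Lrrtm2 and Lrrtm3 then go untested. Against P0 in EN, 2 became 0 at 1W with the mean of probes, and 5 became 3 at 3W with the all-array filter, 2 with the slide and 3 with the scan batch as a block. Against P0 in AN, 1 became 0 at 1W with the mean of probes, and 3 became 0 at 3W with normexp, 0 with either block, 6 with array weights and 1 with the mean of probes. For the change of the difference from P0, 1 at 1W became 0 by adjusted p, 3 with array weights, 3 with only the groups compared and 0 with the mean of probes, 3 at 3W became 1 by adjusted p, and 5 at 5W became 2 by adjusted p, 2 with normexp and 3 with the all-array filter. Except for the adjusted p and the filter, which by construction call or test fewer, the cause was not tested. Leaving out 1 array gave 0 to 0, 2 to 3, 4 to 5 and 5 to 6 members for AN against EN at P0, 1W, 3W and 5W. It gave 2 to 2, 5 to 5 and 5 to 6 against P0 in EN, 1 to 1, 1 to 6 and 3 to 5 in AN, and 0 to 2, 3 to 4 and 4 to 7 for the change of the difference. Signals near background bound how low Nlgn1, Lrrtm2 and Lrrtm3 can be read in EN at 5W.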
